A study of Mus musculus with 7 samples.

Results

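The genes described here make ribosomes in the nucleolus, together with Myc, the transcription factor that drives many of them. The list of 45 mouse genes was drawn up by name and function, and 44 of them were found in the expression table of 28987 genes. Noc2l was not analysed here. By role they comprise Myc itself (1 gene), 9 genes of RNA polymerase I transcription, 4 of the box C/D and 4 of the box H/ACA small nucleolar ribonucleoproteins (snoRNPs), 15 of the small subunit processome and 40S maturation, and 11 of 60S assembly.

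The 7 libraries, in 6 groups, came from the bone marrow of C57BL/6 mice. Haematopoietic stem and progenitor cells (HSC/P), enriched through the receptor CD117 and followed by a sort of the mutant clone, gave 3 of them. HMGA2 was overexpressed in all 3, alone in 1 library (HMGA2-OE) and together with a RUNX1 mutation in a pair of libraries (RUNX1mut/HMGA2-OE, called combined from here on). The other 4 libraries were sorted Ly6G+ myeloid cells, mostly neutrophils, 1 for each genotype: Control, HMGA2-OE, RUNX1mut and combined. There was thus no HSC/P library without HMGA2-OE and no replicate of a Ly6G+ genotype. The sources used here do not give the RUNX1 change, the driver of HMGA2 or the ages of the mice. The labels speak of individual mice without saying whether a mouse gave more than 1 library. Only the combined HSC/P group had more than 1 library, so p-values measure no spread between mice within the other groups. In the Ly6G+ comparisons the error was the departure of the 4 libraries from additive effects of mutation and overexpression.

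Ribosome production begins with transcription of the ribosomal DNA by RNA polymerase I in the nucleolus. Box C/D snoRNPs methylate the ribosomal RNA and box H/ACA snoRNPs convert uridines to pseudouridine, while the small subunit processome and a separate set of factors build the precursors of the small and the large subunit. Proliferating blood progenitors make many ribosomes, and the nucleolus shrinks as granulocytes mature into neutrophils.

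Values are TPM, a length-normalised share of all transcripts, which compares genes per length but carries no read depth. Library totals over these genes ran from 896820 to 993009 TPM, and 8559 to 12449 genes reached 1 TPM. The labels were checked with the altered genes. Runx1 stood at 18.9 TPM in the HMGA2-OE library of HSC/P and at 219 and 225 in the combined pair. In Ly6G+ cells it reached 11.6 TPM (RUNX1mut) and 21.2 TPM (combined) with the mutation, and 3.85 (Control) and 3.36 (HMGA2-OE) without. Hmga2 ranged from 138 to 176 TPM in HSC/P, and reached 3.72 (HMGA2-OE) and 12.1 (combined) in Ly6G+ cells with overexpression, against 1.45 (Control) and 1.36 (RUNX1mut) without. The Ly6G+ identity was borne by the neutrophil markers, which summed to between 308989 and 678794 TPM there against 18049 to 63247 in HSC/P, while the 12 stem and progenitor markers summed to 23.7 to 80.4 against 411 to 1088. The combined Ly6G+ library stood apart: S100a8, a neutrophil alarmin gene, took 3.11% of its TPM against 40.2% to 55% in the other 3. A transcript of this size depresses the TPM of all other genes, so libraries were scaled by a trimmed mean of log ratios before testing, and differences are on the log2 scale of scaled TPM with 1 TPM added. S100a9, another neutrophil marker, did not share this gap. Its scaled TPM was 89925 in the combined Ly6G+ library, against 92767 (Control), 102479 (HMGA2-OE) and 80532 (RUNX1mut).

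The members were abundant in HSC/P and low in Ly6G+ cells. In TPM they summed to 3933 in HSC/P with HMGA2-OE alone and to 3826 and 3672 in the combined pair. The sum over Ly6G+ cells was 130 (Control), 116 (HMGA2-OE), 229 (RUNX1mut) and 498 (combined). From here on, HSC/P values are given with HMGA2-OE first and the combined pair next, and Ly6G+ values in this order of genotypes. The sums are of TPM as deposited, before scaling, and Nop56 alone held 169 of the 498 in the combined Ly6G+ library. In each HSC/P library 43 of 44 members reached 10 TPM, against 3, 1, 6 and 10 members in the Ly6G+ libraries. The lowest HSC/P value lay above the highest Ly6G+ value for 42 of the 44 members (95.5%), against 66.5% of the 12881 genes with 1 TPM in 2 libraries. The exceptions were Rrp9 and Tcof1, the gene of the nucleolar factor treacle, which was at 0 to 1.40 TPM in every library and is not described further. In these bulk samples, fewer cells of a type and less RNA per cell cannot be told apart.

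**Figure D1:**
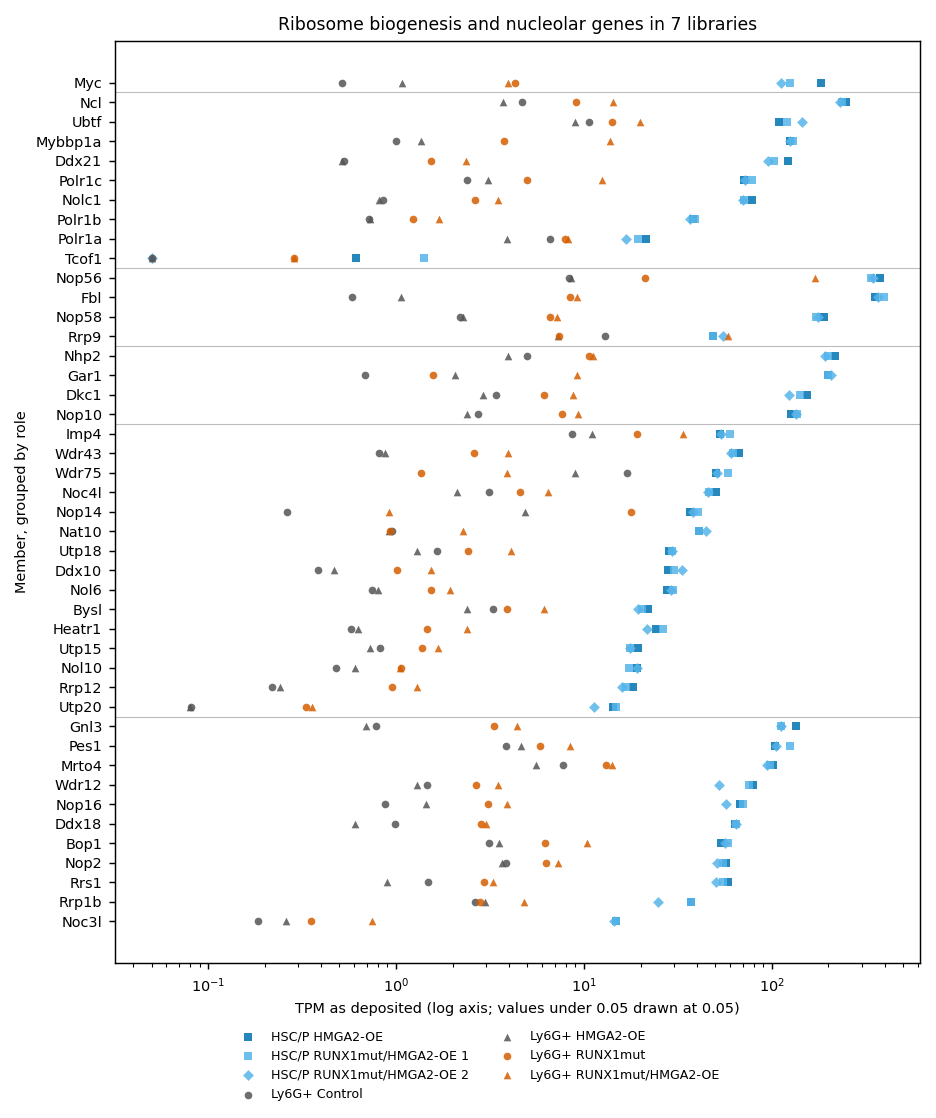
TPM as deposited (log axis) of the 44 members in 7 libraries, 1 point per library, grouped by role, with values under 0.05 drawn at 0.05. HSC/P libraries (blue squares and diamonds) lie above the Ly6G+ libraries for 42 of 44 members, and among Ly6G+ libraries those with the RUNX1 mutation (orange) are often the higher ones.

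MYC with its partner MAX binds the E-box CACGTG, so the promoters of the members were searched for it. RefSeq promoter windows of 300 bases (250 before to 50 after a start site, GRCm38.p6) were at hand for 38 of the 45 members. The letters CACGTG, which read the same on both strands, occurred in the windows of 7 of them (18.4%), against 8.09% of 27025 genes with a window and 11.9% of the 9539 such genes that reached 1 TPM in 2 libraries. For 3 of the 7, Imp4, Nop2 and Utp18, the motif began 121, 60 and 20 bases before the start site, and the 250 bases before that site are shown. For Pes1, Mybbp1a, Wdr43 and Utp20 it began at base 3, 41, 18 and 38 after the start site, and 30 bases around it are shown. The capitals mark the motif.
Imp4 (chr1:34439579-34439828, plus strand): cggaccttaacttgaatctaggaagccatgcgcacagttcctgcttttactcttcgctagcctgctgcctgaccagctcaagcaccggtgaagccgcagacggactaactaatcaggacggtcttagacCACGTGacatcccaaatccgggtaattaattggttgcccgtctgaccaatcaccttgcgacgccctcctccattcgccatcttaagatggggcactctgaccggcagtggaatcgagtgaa
Nop2 (chr6:125131633-125131882, plus strand): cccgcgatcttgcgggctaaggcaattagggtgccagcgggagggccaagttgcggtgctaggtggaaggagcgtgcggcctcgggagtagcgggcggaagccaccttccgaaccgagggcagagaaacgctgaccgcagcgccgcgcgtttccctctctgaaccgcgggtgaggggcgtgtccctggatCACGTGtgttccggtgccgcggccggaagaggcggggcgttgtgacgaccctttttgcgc
Utp18 (chr11:93885767-93886016, minus strand): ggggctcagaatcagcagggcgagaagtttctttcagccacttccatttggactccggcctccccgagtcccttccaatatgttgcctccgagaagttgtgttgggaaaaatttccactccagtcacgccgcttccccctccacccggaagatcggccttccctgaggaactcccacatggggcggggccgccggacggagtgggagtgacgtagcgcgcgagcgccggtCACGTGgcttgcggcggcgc
Pes1 (chr11:3963965-3963994, plus strand): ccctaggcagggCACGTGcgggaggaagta
Mybbp1a (chr11:72441347-72441376, plus strand): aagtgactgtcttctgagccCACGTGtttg
Wdr43 (chr17:71616220-71616249, plus strand): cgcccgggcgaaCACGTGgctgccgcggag
Utp20 (chr10:88826765-88826794, minus strand): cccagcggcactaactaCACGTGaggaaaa
A match is only a run of letters. The 7 members with the motif had a median HSC/P minus Ly6G+ difference of 2.12 on the log2 scale, and the 30 tested members with a window but no motif had 2.40.

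The first comparison set HSC/P against Ly6G+ cells in the 5 libraries with HMGA2-OE, with the RUNX1 mutation as a covariate. Ribosome biogenesis genes of every role were higher in HSC/P, led by Fbl, Ddx21 and Myc. Of the 43 members tested, limma (Benjamini-Hochberg over 12686 genes) called 36 higher and 0 lower in HSC/P at an adjusted p under 0.05, where it called 32.2% of all genes higher and 32.5% lower. At an unadjusted p under 0.05 it placed 1 member, Imp4, lower, against 34% of all genes. The members' median difference was 2.25 on the log2 scale, against 0.10 for all genes. Every HSC/P library was above both Ly6G+ libraries in scaled TPM for 38 of 43 members (88.4%), against 41.3% of all genes. The filter (1 TPM in 2 libraries) could be met through the HSC/P libraries alone. For 2 members neither Ly6G+ library of this comparison reached 1 TPM. Of the other 41, 34 were called higher (82.9%), against 27.3% of such genes. Some of these 41, such as Gnl3 and Wdr43, were under 1 TPM in Ly6G+ HMGA2-OE and so also needed an HSC/P library. The 41 are therefore not free of the filter. The size of the difference depended on the scaling: without it the members' median was 3.66 and that of all genes 1.46, and 87.9% of called genes were higher, against 49.7% with scaling and 63.6% with upper-quartile scaling. Relative to all genes, the members' median was 2.14 as scaled, 2.20 without scaling and 2.11 with upper-quartile scaling.

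**Figure D2:**
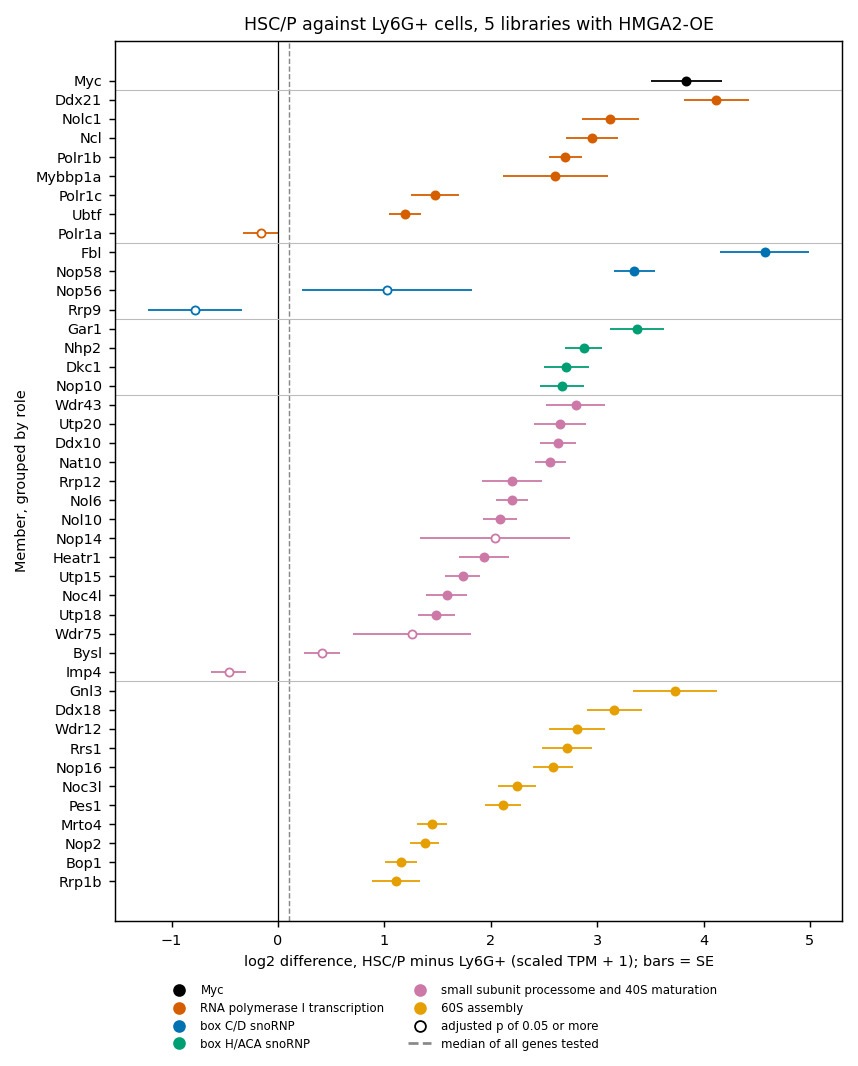
Log2 difference (scaled TPM + 1) of HSC/P minus Ly6G+ cells for 43 members in the 5 libraries with HMGA2-OE, with bars for the SE of the fit, filled points for an adjusted p under 0.05, and a dashed line at the median of all genes (0.10). Fbl (4.58), Ddx21 (4.12) and Myc (3.84) are the highest, and Rrp9 (-0.78), Imp4 (-0.46) and Polr1a (-0.16) lie below 0 without passing.

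Myc (ENSMUSG00000022346, mm10 chromosome 15, 61985391 to 61990374, plus strand) was at 182, 125 and 111 TPM in HSC/P. Its Ly6G+ values were 0.52 TPM (Control), 1.08 (HMGA2-OE), 4.29 (RUNX1mut) and 3.92 (combined). The cell types did not overlap, and among Ly6G+ cells both libraries with the mutation were above both without it. Myc rose 14.3-fold in HSC/P on the log2 scale with 1 TPM added (3.84 ± 0.33 (SE), limma adjusted p = 0.00153).

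Among the RNA polymerase I genes, 7 of the 8 tested rose in HSC/P, with a median of 2.65. Ncl, which encodes nucleolin, the abundant nucleolar protein that binds nascent ribosomal RNA, was at 248, 237 and 229 TPM in HSC/P, against 4.71, 3.70, 9.11 and 14.3 in Ly6G+ cells. Mybbp1a, whose product binds MYB and takes part in ribosomal RNA processing, was at 124, 129 and 124 TPM against 1.0, 1.36, 3.75 and 13.7. Ubtf, which encodes the factor UBF that opens ribosomal DNA for RNA polymerase I, was at 109, 121 and 144 TPM against 10.7, 8.99, 14.1 and 19.9. The groups did not overlap for these 3 genes, and Ubtf had the highest level of the 3 in every Ly6G+ library. The helicase gene Ddx21 showed the largest rise of this role (4.12 ± 0.30, adjusted p = 0.0011), from at most 2.37 TPM in Ly6G+ cells to at least 95.8 in HSC/P. The exception was Polr1a, the largest subunit of the polymerase, which was at 21.5, 19.4 and 16.8 TPM in HSC/P and at 6.63, 3.88, 7.93 and 8.23 in Ly6G+ cells. Its difference was -0.16 ± 0.16 (adjusted p = 0.423), and it was above 0 without scaling (1.54), with upper-quartile scaling (0.31) and with no filter (0.13).

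The box C/D snoRNP genes held both the largest rise and the clearest exceptions. Fbl (ENSMUSG00000046865, chromosome 7, 28169710 to 28179269, plus strand) encodes fibrillarin, the methyltransferase of these particles. It was at 353, 394 and 366 TPM in HSC/P and at 0.59, 1.06, 8.47 and 9.20 in Ly6G+ cells, and rose 23.9-fold on the log2 scale (4.58 ± 0.42, adjusted p = 0.00167). The core scaffold gene Nop58, at 189, 172 and 177 TPM against 2.20, 2.27, 6.56 and 7.18, rose as well (3.35 ± 0.19, adjusted p = 8.05e-04). Its partner Nop56 (ENSMUSG00000027405, chromosome 2, 130274430 to 130279313, plus strand) was at 378, 338 and 347 TPM in HSC/P. In Ly6G+ cells Nop56 was at 8.29, 8.53 and 21.1 TPM in the first 3 genotypes but at 169 in the combined library. After scaling that library was no longer below every HSC/P library, and Nop56 did not pass (1.03 ± 0.80, adjusted p = 0.310). Rrp9, a protein of the U3 particle, was similarly placed, with 48.9, 48.9 and 55.3 TPM in HSC/P and 13.0, 7.23, 7.34 and 58.2 in Ly6G+ cells. Its difference was -0.78 ± 0.44 (adjusted p = 0.187), but 1.02 without scaling and 0.19 without the combined Ly6G+ library.

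All 4 box H/ACA genes rose in HSC/P, by 2.67 to 3.37 on the log2 scale. Nhp2, a core protein of these particles and of telomerase, was at 216, 199 and 191 TPM in HSC/P and at 5.01, 3.93, 10.7 and 11.1 in Ly6G+ cells. Gar1, another core protein, was at 200, 200 and 207 TPM against 0.68, 2.07, 1.57 and 9.17, and rose the most (3.37 ± 0.25, adjusted p = 0.00114). Dkc1, the pseudouridine synthase dyskerin, was at 154, 141 and 123 TPM against 3.42, 2.91, 6.14 and 8.70. The cell types did not overlap for any of the 4, Nop10 included (127 to 135 TPM against 2.38 to 9.35).

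Of the 15 genes of the small subunit processome and 40S maturation, 11 rose in HSC/P, with a median over the 15 of 2.04. The highest mean TPM over the 7 libraries was that of Imp4, a protein of the U3 particle, at 53.1, 60.2 and 53.5 TPM in HSC/P against 8.62, 11.1, 19.1 and 33.5 in Ly6G+ cells. Imp4 was at -0.46 ± 0.16 (adjusted p = 0.0638) as scaled, at 1.35 without scaling and at 0.04 with upper-quartile scaling. Without the Ly6G+ HMGA2-OE library, which leaves the combined library that stood apart as the only Ly6G+ sample, assumed to vary like the HSC/P pair, it passed as lower in HSC/P, at -0.67, as did Rrp9 (-1.58) and Nop56, so that 3 members were then called lower. Wdr43, a subunit of the early processome, was at 66.7, 61.8 and 60.6 TPM against 0.81, 0.87, 2.60 and 3.93 and rose by 2.80 ± 0.28 (adjusted p = 0.00195). Wdr75, of the same early complex, was at 50.5, 58.6 and 51.1 TPM in HSC/P, while its Ly6G+ values scattered over 17.0, 8.96, 1.36 and 3.88 (1.26 ± 0.55, adjusted p = 0.109). The remaining genes that did not pass were Nop14 (2.04 ± 0.71, adjusted p = 0.0613), at 0.26 to 17.9 TPM in Ly6G+ cells, and Bysl, needed for 40S release (0.41 ± 0.17, adjusted p = 0.0926).

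Every one of the 11 tested genes of 60S assembly rose in HSC/P, with a median of 2.25 and a range of 1.11 to 3.73. Gnl3, the nucleolar GTPase nucleostemin of stem and progenitor cells, was at 135, 112 and 112 TPM in HSC/P and at 0.79, 0.69, 3.34 and 4.42 in Ly6G+ cells, and rose 13.3-fold on the log2 scale (3.73 ± 0.39, adjusted p = 0.0022). Pes1, which forms a complex with Bop1 and Wdr12, was at 104, 124 and 105 TPM against 3.85, 4.62, 5.84 and 8.42. Mrto4, a placeholder for a ribosomal stalk protein, was at 101, 97.4 and 94.4 TPM against 7.76, 5.59, 13.1 and 14.0. HSC/P and Ly6G+ values did not overlap for any of the 11.

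Most of the exceptions shared an annotation feature. In GENCODE M21, 12 of the 44 members have a transcript of 350 to 420 nt, a class singled out from earlier results of these data, as do 24% of genes with 1 TPM in 2 libraries. Of the 7 members that did not pass, Polr1a, Nop56, Rrp9, Imp4, Wdr75 and Nop14 are among the 12 and Bysl is not. Of the 31 tested members without such a transcript, 30 rose in HSC/P, with a median of 2.58. What part these transcripts have in the values was not tested.

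Other genes of the pathway were mostly higher in HSC/P too. Of 135 other genes tested in 6 lists, 101 were called higher and 10 lower, with a median of 1.18. Of the other RNA polymerase I genes 14 of 16 rose, among them the subunit genes Polr2f (1.62 ± 0.29), Polr1d (0.68 ± 0.14), Polr2e (0.77 ± 0.12) and Znrd1 (1.29 ± 0.14). Of 40 other small subunit genes 29 rose and 2 fell, and the 4 with the highest mean TPM over the 7 libraries, a rank that favours genes also present in Ly6G+ cells, were Emg1 (0.88 ± 0.24) and Snu13 (1.32 ± 0.13), which passed, and Fcf1 (0.27 ± 0.16) and Ddx47 (-0.13 ± 0.16), which did not. Of 51 other 60S genes 41 rose and 1, Pwp1, fell. Npm1, the nucleolar chaperone nucleophosmin and a gene often mutated in myeloid leukaemia, was at 1364, 1285 and 1246 TPM in HSC/P against 11.0, 10.2, 36.5 and 49.1 in Ly6G+ cells and rose by 3.80 ± 0.33 (adjusted p = 0.00151). Npm3 (3.89 ± 0.36), Nop53 (1.20 ± 0.12) and Rrp1 (0.85 ± 0.15) rose as well. Of 13 exosome genes, which degrade RNA processing by-products, 10 rose and 1, Exosc4, fell, with Exosc8 at 1.66 ± 0.20, Exosc5 at 2.01 ± 0.15, Exosc3 at 0.65 ± 0.13 and Exosc7 at 0.80 ± 0.17. The host genes of small nucleolar RNAs rose for 4 of 5: Gas5 by 2.18 ± 0.21, Snhg3 by 2.38 ± 0.47 and Zfas1 by 2.68 ± 0.25, against 0.13 ± 0.52 for Snhg15.

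Among 10 MYC partners and antagonists 3 rose and 6 fell in HSC/P. Mxd1, which encodes a repressor that competes with MYC for MAX as cells differentiate, was at 18.9, 10.6 and 12.7 TPM in HSC/P and at 343, 318, 289 and 411 in Ly6G+ cells. The groups were far apart in the direction opposite to Myc, with a fall of Mxd1 in HSC/P by 6.40 ± 0.14 on the log2 scale (adjusted p = 6.18e-04). Max (-2.11 ± 0.13) and Mlx (-2.06 ± 0.13) fell on the scaled values, although in TPM they were at similar levels in both cell types (Max at 74.3 to 90.6 against 59.6 to 138, Mlx at 43.0 to 48.3 against 35.1 to 71.9). Mycn, a relative of Myc, was at 18.7, 39.0 and 94.4 TPM in HSC/P and at most 1.36 in Ly6G+ cells and rose by 3.59 ± 0.41 (adjusted p = 0.00279). For reference, 27 of 27 cytosolic ribosomal protein genes rose in HSC/P, with a median of 2.77, and 8 of 18 proliferation genes did, with a median of 0.19.

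Among the HSC/P libraries, with the combined pair against 1 library of HMGA2-OE, most members were slightly lower with the mutation, Myc by the most, and none passed the test. Limma called 0 of 12226 genes, with a smallest adjusted p of 0.112, and 8.35% of genes were higher and 7.26% lower at an unadjusted p under 0.05. By that measure 4 of 43 members were lower (Myc, Ddx21, Gnl3 and Nop56) and 0 higher. The difference was below 0 for 41 of 43 members, against 51.9% of all genes, and its median was -0.24 against -0.02. Both combined libraries were below HMGA2-OE in scaled TPM for 36 members (83.7%), against 41% of all genes. The exceptions were Ddx10, Fbl, Imp4, Pes1, Polr1c, Ubtf and Wdr75. Without scaling the members' median was -0.08 and that of all genes 0.14, so relative to all genes it was -0.22 in both cases.

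Scaled Myc was at 197 TPM with HMGA2-OE alone and at 122 and 105 in the combined pair, a difference of -0.79 ± 0.15 on the log2 scale (1.73-fold, limma adjusted p = 0.195). Ddx21 was at 132 against 99.8 and 90.6 scaled TPM (-0.47 ± 0.13, adjusted p = 0.265), and Gnl3 at 145 against 109 and 106 (-0.43 ± 0.12, adjusted p = 0.258). For these 3 genes the mutant pair lay close together and below the HMGA2-OE library. Wdr12 was at 85.7 against 74.0 and 49.5 (-0.49 ± 0.29, adjusted p = 0.472), and Rrp1b, a regulator of late nucleolar steps, at 40.3 against 36.1 and 23.3 (-0.46 ± 0.31, adjusted p = 0.529). Here the second combined library was much the lower of the pair. Above 0 were only Ubtf (0.11 ± 0.15, adjusted p = 0.743) and Ddx10 (0.0024 ± 0.15, adjusted p = 0.996), a helicase of the small subunit pathway.

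The pair differed in degree. Against the same HMGA2-OE library, replicate 1 had a median log2 ratio of -0.14 over the members, with 37 of 43 below 0, and replicate 2 of -0.29, with 41 of 43 below 0. By role the medians of the fit were -0.25 for 60S assembly, -0.23 for box H/ACA, -0.22 for RNA polymerase I, -0.18 for box C/D and -0.18 for the small subunit. The 135 other pathway genes had a median of -0.12, with 104 below 0, and the ribosomal protein genes one of -0.03, with 16 of 27 below 0. Snhg3 was at -0.66 ± 0.18, Npm1 at -0.28 ± 0.11 and Mxd1 at -0.82 ± 0.20, while Mycn was at 1.49 ± 0.56, and none of these passed. Markers of cell types and of proliferation moved with this comparison. The 18 proliferation genes were all below 0 (median -0.40), as were 10 of 10 erythroid markers (-0.97) and 8 of 8 granulocyte precursor markers (-0.64), while stem and progenitor markers had a median of 1.41 (10 of 12 above 0) and megakaryocyte markers one of 2.14 (8 of 8). Neutrophil markers had a median of -1.93 (10 of 12 below 0). Stem and progenitor markers summed to 411 TPM in HMGA2-OE and to 1088 and 1033 in the pair, megakaryocyte markers to 447 against 887 and 2330, and neutrophil markers to 63247 against 18049 and 18883. The pair was split on the other lists. Erythroid markers summed to 2623 TPM against 1303 and 2617, and granulocyte precursor markers to 7929 against 9348 and 4816. No marker of these lists was at 0 in HSC/P. Their part in the members' values was not tested.

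**Figure D3:**
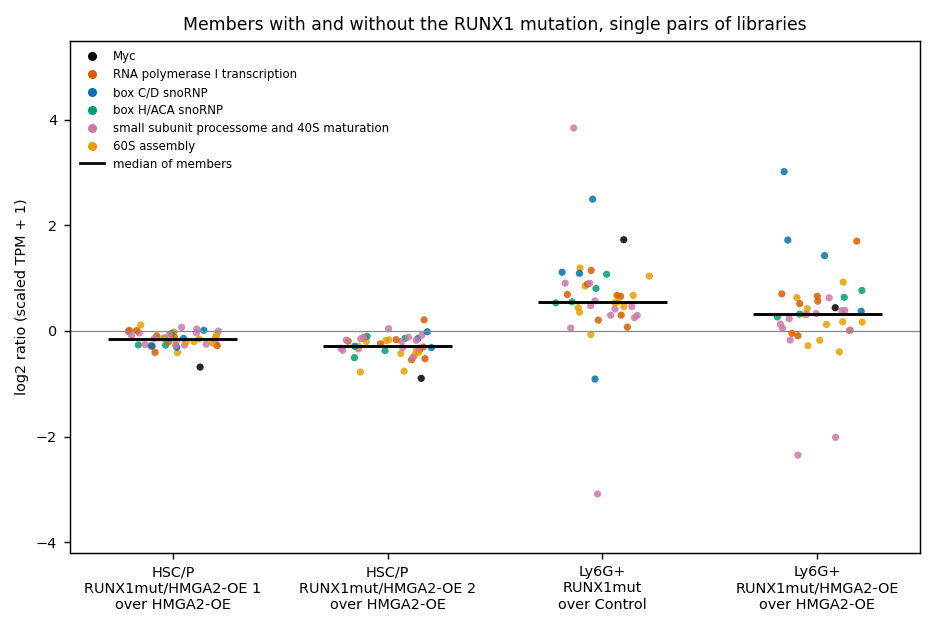
Log2 ratios (scaled TPM + 1) of the members in 4 single pairs of libraries with and without the RUNX1 mutation, 1 point per member coloured by role, with black bars at the medians. The medians are -0.14 and -0.29 in the HSC/P pairs (43 members, which share the HMGA2-OE library) and 0.55 and 0.32 in the Ly6G+ pairs (39 members).

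In Ly6G+ cells the members lay on the other side: they were mostly higher in the 2 libraries with the RUNX1 mutation than in the 2 without it, again with none past the test. The RUNX1 term of an additive fit with HMGA2-OE called 0 of 9820 genes in limma, with a smallest adjusted p of 0.331, and 7.71% of genes were higher and 6.62% lower at an unadjusted p under 0.05. With so few libraries this test misses most changes, so the count of 0 says little. Of the 44 members 39 were tested, and Nat10, Noc3l, Rrp12, Tcof1 and Utp20 did not reach 1 TPM in 2 libraries. Of the 39, 12 were higher at an unadjusted p under 0.05 and 1, Wdr75, lower. The difference was above 0 for 36 of 39, against 50.8% of all genes, and its median was 0.49 against 0.01. Both mutant libraries were above both others in scaled TPM for 29 members (74.4%), against 26.1% of all genes. However, 11 of the 39 met the filter only through the mutant libraries, as neither library without the mutation reached 1 TPM. Of the other 28, 25 were above 0 (89.3%, against 47.6% of such genes), with a median of 0.49, and 19 did not overlap (67.9%, against 22.3%). Some of these 28, such as Fbl and Myc, were under 1 TPM in Control and so also needed a mutant library to be tested. The 28 are therefore not free of the filter. Role medians and 2-fold counts given below take in all tested members. Without scaling the members' median was 1.0 and that of all genes 0.58, so relative to all genes it was 0.48 as scaled and 0.42 without scaling.

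**Figure D4:**
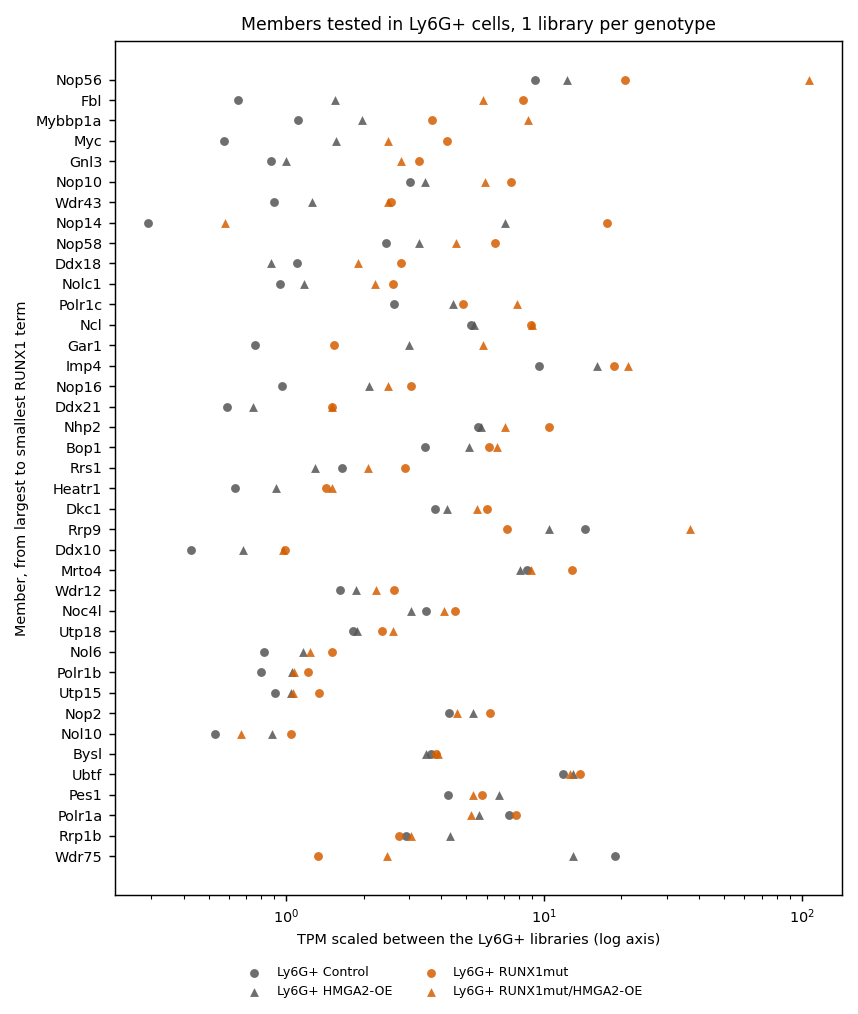
TPM scaled between the 4 Ly6G+ libraries (log axis) of the 39 members tested there, 1 point per library, ordered from the largest to the smallest RUNX1 term. Orange points (RUNX1 mutation) lie to the right of both grey points for 29 members, and to the left of both for Wdr75.

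The box C/D genes, only 4 in number, had the highest median of the roles (1.35), ahead of RNA polymerase I (0.63), box H/ACA (0.59), 60S assembly (0.41) and the small subunit (0.30). In scaled TPM, Fbl was at 0.65 and 1.54 without the mutation (Control, HMGA2-OE) and at 8.32 and 5.83 with it (RUNX1mut, combined) (1.96 ± 0.35, limma adjusted p = 0.331). Nop56 was at 9.20 and 12.4 against 20.8 and 107 (2.06 ± 0.60, adjusted p = 0.348). Both genes separated the mutant from the other libraries, but for Nop56 the combined library lay far above RUNX1mut.

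Mybbp1a was at 1.11 and 1.98 against 3.68 and 8.68 (1.42 ± 0.21, adjusted p = 0.331). Myc was at 0.57 and 1.57 against 4.22 and 2.48 (1.09 ± 0.42, adjusted p = 0.386), and Gnl3 at 0.87 and 1.0 against 3.28 and 2.80 (1.06 ± 0.17, adjusted p = 0.331). The mutant libraries were above the others for all 3 genes, although Myc and Gnl3 were highest in RUNX1mut and Mybbp1a in the combined library. Gnl3 was under 1 TPM as deposited in both libraries without the mutation, so only the mutant libraries took it past the filter. Ncl was at 5.23 and 5.36 against 8.94 and 9.04.

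Wdr75 went the other way, at 18.8 and 13.0 without the mutation against 1.33 and 2.46 with it (-2.55 ± 0.35, adjusted p = 0.331). Rrp1b (-0.23 ± 0.16, adjusted p = 0.532) and Polr1a (-0.01 ± 0.13, adjusted p = 0.972) were the only others below 0, and both were above 0 without scaling (0.30 and 0.57). Nop14, whose product joins the early small subunit precursor, followed no genotype, at 0.29 and 7.07 without the mutation against 17.6 and 0.58 with it. Wdr75, Polr1a and Nop14 have a transcript of 350 to 420 nt.

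The median over the members was 0.55 for RUNX1mut over Control (36 of 39 above 0) and 0.32 for combined over HMGA2-OE (31 of 39 above 0), pairs that share no library. A 2-fold excess was reached by 9 and by 4 members (23.1% and 10.3%), against 5.36% and 4.93% of all genes. In the first pair Myc had a log2 ratio of 1.73, in the second 0.44. In an additive fit to all 7 libraries without the combined Ly6G+ library, which takes in the HSC/P libraries, the members' median RUNX1 term was 0.14.

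Other pathway genes had a median RUNX1 term of 0.21 in Ly6G+ cells, with 101 of 126 above 0, against 50.8% of all genes. Some of them, such as Rrp15, Rcl1, Tsr1 and Grwd1, were under 1 TPM in both libraries without the mutation. Only the mutant libraries took these past the filter, so the count of 101 is not free of it. The 5 snoRNA host genes were all above 0 (median 0.73) and below an unadjusted p of 0.05 in limma, where 7.71% of all genes were higher. Among them Snhg17 was under 1 TPM in both libraries without the mutation, so only the mutant libraries took it past the filter. Snhg15 had the largest term (2.34 ± 0.15). It was at 0.90 (Control), 5.85 (HMGA2-OE), 9.57 (RUNX1mut) and 30.4 (combined) scaled TPM, and its HMGA2-OE term was 1.71 ± 0.15. Npm1 was at 12.2 and 14.8 scaled TPM without the mutation against 35.8 and 31.1 with it (1.25 ± 0.18, adjusted p = 0.331), and Mxd1 was at -0.62 ± 0.15. Ribosomal protein genes had a median of 0.45 (22 of 27 above 0) and proliferation genes one of 0.03 (10 of 18).

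Markers of other and less mature cells moved with the mutation in Ly6G+ cells as well. Stem and progenitor markers had a median of 0.98 (8 of 9 tested above 0) and summed to 29.1 and 23.7 TPM without the mutation and to 61.7 and 80.4 with it. Granulocyte precursor markers had a median of 0.81 (6 of 8) and summed to 407 and 409 against 821 and 971. Erythroid markers had one of 1.69 (8 of 9) and summed to 101 and 84.3 against 340 and 5890, and megakaryocyte markers one of 1.43 (6 of 7). These sums are of TPM as deposited, and the erythroid sum of the combined library was mostly Hbb-bs. Its scaled TPM there was 3127, against 114 in RUNX1mut, 41.7 in HMGA2-OE and 35.9 in Control. Medians were also above 0 for markers of mast cells, basophils and eosinophils (1.18, 6 of 6), of monocytes and macrophages (0.81, 6 of 7) and of B cells (0.70, 7 of 7), while 11 of 12 neutrophil markers were below 0 (median -0.20). Of the stem and progenitor markers Procr was at 0 in the libraries without the mutation, and no granulocyte precursor or erythroid marker was at 0. The megakaryocyte markers Ppbp and Treml1 were at 0 in Control. The tested stem and progenitor marker below 0 was Kit (-0.60 ± 0.13), the gene of CD117. The part of such cells in the members' values was not tested.

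HMGA2 overexpression was compared in the same 4 Ly6G+ libraries, with the mutation as a covariate. The members showed no shared direction: 25 of 39 were above 0, against 52.2% of all genes, with a median of 0.03. Limma called 0 of 9820 genes, and at an unadjusted p under 0.05 it placed 3 members higher and 0 lower, against 3.34% and 3.17% of all genes. These 3 were Gar1, at 0.76 (Control) and 1.54 (RUNX1mut) scaled TPM without overexpression against 3.0 (HMGA2-OE) and 5.81 (combined) with it (1.31 ± 0.16, adjusted p = 0.511), Mybbp1a (0.77 ± 0.21, adjusted p = 0.741) and Polr1c (0.59 ± 0.12, adjusted p = 0.700), a subunit shared by RNA polymerases I and III. Both HMGA2-OE libraries were above both others for 2 members (5.13%), Gar1 and Rrp1b, against 16% of all genes. Nop56 (1.35 ± 0.60, adjusted p = 0.741) and Rrp9 (0.89 ± 0.81, adjusted p = 0.806) were highest in the combined library. The lowest were Nop14 (-0.45 ± 1.90, adjusted p = 0.952), Polr1a (-0.42 ± 0.13, adjusted p = 0.741), Mrto4 (-0.28 ± 0.17, adjusted p = 0.769), Ddx18 (-0.27 ± 0.16, adjusted p = 0.767) and Rrs1 (-0.27 ± 0.15, adjusted p = 0.758). The median was 0.19 for HMGA2-OE over Control and -0.11 for combined over RUNX1mut.

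The difference between cell types in the effect of the mutation was tested as an interaction in the 5 libraries with HMGA2-OE, with 1 residual degree of freedom. It is positive where the mutation effect was higher in HSC/P. Limma called 0 of 12686 genes, and 8.6% were above 0 and 9.51% below 0 at an unadjusted p under 0.05. On simulated data this test recovered no changed gene, so the count of 0 says little. At an unadjusted p under 0.05, 17 of 43 members were below 0 and 2 above. The members' median was -0.53 against 0.003 for all genes, and 37 of 43 were below 0, against 49.8% of genes. Lowest were Nop56 (-3.31 ± 0.17, adjusted p = 0.122), Mybbp1a (-2.0 ± 0.19, adjusted p = 0.134), Rrp9 (-1.77 ± 0.21, adjusted p = 0.148), Fbl (-1.67 ± 0.20, adjusted p = 0.149) and Gnl3 (-1.55 ± 0.19, adjusted p = 0.149). Highest were Nop14 (2.89 ± 0.22, adjusted p = 0.122), Wdr75 (2.24 ± 0.25, adjusted p = 0.147), Pes1 (0.35 ± 0.27, adjusted p = 0.557), Ubtf (0.23 ± 0.24, adjusted p = 0.651) and Nol10 (0.08 ± 0.25, adjusted p = 0.879), of which Pes1, Ubtf and Nol10 were below 0 without scaling. With no filter on low values, limma called 3250 genes, among them 3 members below 0 (Nop56, Mybbp1a and Gnl3) and 1 above (Nop14). This test shares its HSC/P libraries and both HMGA2-OE Ly6G+ libraries with the comparisons above.

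Over both cell types with HMGA2-OE the mutation term had a median of -0.003 over the 43 members, and 0 of them had an unadjusted p under 0.05. Limma called 0 of 12686 genes, with 4% higher and 3.79% lower at an unadjusted p under 0.05. The highest were Nop56 (1.12 ± 0.80, adjusted p = 0.696), Mybbp1a (0.72 ± 0.49, adjusted p = 0.687), Rrp9 (0.69 ± 0.44, adjusted p = 0.681), Fbl (0.66 ± 0.42, adjusted p = 0.679) and Gar1 (0.27 ± 0.25, adjusted p = 0.758). The lowest were Nop14 (-1.30 ± 0.71, adjusted p = 0.660), Wdr75 (-1.0 ± 0.55, adjusted p = 0.665), Rrp1b (-0.47 ± 0.23, adjusted p = 0.651), Polr1a (-0.29 ± 0.16, adjusted p = 0.665) and Nop2 (-0.26 ± 0.13, adjusted p = 0.658), a methyltransferase of 60S assembly. Rrp1b, Polr1a and Nop2 were above 0 without scaling.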

How the data were processed

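Messenger RNA of bone marrow HSC/P and Ly6G+ cells was profiled in 7 libraries. The submitters' processing notes name bcl2fastq, CASAVA 1.8, kallisto and the mouse build mm10. For kallisto, the sources used here give no version, index or annotation. The values deposited by the authors were taken as TPM because they are not whole and because their totals are nearly equal, so read depth and counting error are unknown. Symbols, coordinates and transcript lengths came from GENCODE M21, which named 27458 identifiers, and promoters from RefSeq.

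Genes with at least 1 TPM in 2 libraries of a fit were tested with limma 3.58.1 (R 4.3.3; trend on mean expression, two-sided, Benjamini-Hochberg over all genes, threshold 0.05) on log2 of scaled TPM plus 1. Libraries were scaled by a trimmed mean of log ratios without weights (trims of 0.3 for ratios and 0.05 for means). This scale understates differences of genes with low TPM. Errors after ± are standard errors. In the Ly6G+ fits, with no replicate, the residual was the departure from additive terms. In the fit of HSC/P alone and in the interaction fit it came from the combined HSC/P pair only. The additive fit to the 5 libraries with HMGA2-OE drew on both. There were 6 tested comparisons, and 10 single pairs were described without a test. Other scalings, added values (0.1 and 5 TPM), filters, variance models, library sets and left-out replicates were tried. The procedure was tested on simulated data, where the interaction test recovered no altered gene, the terms in Ly6G+ cells missed most changes and every test missed nearly all of the smallest ones. Counts of 0 called genes therefore show little.

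The text gives each role's 3 most abundant members and Myc in every library, up to 5 members at each end of every comparison and up to 4 genes of each other list. The members and lists were chosen with earlier results of these data known. Python 3.11.15, pandas 2.3.3 and matplotlib 3.10.9 were used.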

Additional observations from a re-analysis of the deposited data

Results flagged for a closer look

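The members' median moved in opposite directions with the RUNX1 mutation in the cell types. In HSC/P it was a log2 ratio of -0.145 for replicate 1 and -0.291 for replicate 2 of RUNX1mut/HMGA2-OE, each over the same HMGA2-OE library. In Ly6G+ cells it was 0.555 for RUNX1mut over Control and 0.322 for RUNX1mut/HMGA2-OE over HMGA2-OE. The difference between these medians was not tested, and gene by gene the interaction test called 0 of 12686 genes in limma, with 1091 above 0 and 1206 below 0 at an unadjusted p under 0.05.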

How the results depend on the processing

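Every count of members called higher in HSC/P than in Ly6G+ cells stayed within 1.5 times of 36 in the settings tried. Without scaling, all genes shifted with the members, whose medians were 3.66 for HSC/P against Ly6G+ cells, 0.44 for the mutation over both cell types (88 genes called), -1.27 for the interaction, -0.079 for the mutation in HSC/P (1 gene called), 1.0 for the RUNX1 term (133 genes called, 1 of them a member, Fbl) and 0.14 for the HMGA2-OE term (61 genes called) in Ly6G+ cells. The single pairs then gave 4.23, 3.61 and 3.42 for HSC/P over Ly6G+ cells of the same genotype, -0.0043 and -0.10 for combined over HMGA2-OE in HSC/P, and in Ly6G+ cells 0.69 for RUNX1mut over Control, 1.19 for combined over HMGA2-OE, 0.34 for combined over RUNX1mut and -0.014 for HMGA2-OE over Control. Signs then turned for Imp4 (1.35), Rrp9 (1.02) and Polr1a (1.54) between cell types, for Nop2 (0.29), Polr1a (0.26) and Rrp1b (0.065) with the mutation over both, for Pes1 (-0.61), Ubtf (-0.79) and Nol10 (-0.43) in the interaction, and for Polr1a (0.57) and Rrp1b (0.30) in the RUNX1 term. With upper-quartile scaling the cell type median was 2.62, and Imp4 (0.037), Polr1a (0.31) and, in the RUNX1 term, Polr1a (0.015) turned sign.

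With 0.1 and 5 TPM added the medians were 2.76 and 1.47 between cell types, -0.64 and -0.36 in the interaction, where Nol10 was at -0.040 with 5 TPM, and 0.68 and 0.25 in the RUNX1 term. With 0.1 TPM the single pairs gave 3.01, 2.56 and 2.42 for HSC/P over Ly6G+ cells, 0.86 for RUNX1mut over Control, 0.41 for combined over HMGA2-OE and 0.31 for HMGA2-OE over Control in Ly6G+ cells. With no filter the cell type median was 2.45, Polr1a was at 0.13 and, in HSC/P, Ddx10 at -0.0077, and the interaction called 3250 genes, 3 members below 0 and 1 above. With a 5 TPM filter 1 member (Imp4) was lower in HSC/P, the interaction called 1 gene, Polr1a was at 0.029 in the RUNX1 term, and RUNX1mut over Control had a median of 0.64.

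In an additive fit to all 7 libraries the medians were 2.07 between cell types and 0.17 for the RUNX1 term, which replaces both the term over both cell types, where Nop14 was then at 0.43, and that in Ly6G+ cells, and 58 genes were called for HMGA2-OE. With the interaction in the fit 2 members, Imp4 and Rrp9, were lower in HSC/P. Settings added after seeing the data left out a Ly6G+ library: without the combined one the cell type median was 2.77 and Rrp9 was at 0.19, and in the fit to the remaining 6 the RUNX1 median was 0.14 and the HMGA2-OE term called 45 genes, with Nop14 at 1.95 and Rrp9 at -0.17. Without the HMGA2-OE library, with 1 Ly6G+ sample left, 3 members were lower. Members without a transcript of 350 to 420 nt had medians of 2.58 between cell types and -0.42 in the interaction. Leaving out each combined HSC/P replicate gave medians of 2.16 to 2.20 between cell types, -0.66 to -0.43 in the interaction and -0.26 to -0.13 in HSC/P, where Ddx10 was at 0.078 without replicate 1 and -0.024 without replicate 2. In the interaction Nol10 was at 0.075 and -0.0040. The causes of these changes were not tested.

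No paired analysis was possible because the groups compared share fewer than 2 replicate numbers. TPM gives no read depth, so counting error, largest for the members near 1 TPM in Ly6G+ cells, cannot be given. Each mutation test had 1 or 2 residual degrees of freedom.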
